A study of Mus musculus with 8 samples.

Results

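Red cell genes were followed in inguinal white adipose tissue (iWAT), where their transcripts are a sign of blood in the tissue. The 5 genes were chosen by symbol: Hba-a1 (ENSMUSG00000069919), Hba-a2 (ENSMUSG00000069917), Hbb-bs (ENSMUSG00000052305), Hbb-bt (ENSMUSG00000073940) and Alas2 (ENSMUSG00000025270). All 5 were found among the 17264 genes of the tables. iWAT was taken from cold-exposed male C57BL/6 mice aged 9 weeks. Y1cKO mice carried Ythdf1 flox/flox and Adipoq-Cre, and Y1CTL mice carried Ythdf1 flox/flox without the Cre. Ythdf1 encodes a protein that binds mRNA with N6-methyladenosine. The promoter of Adipoq drives Cre in adipocytes, so that red cells and the other cells of the tissue are not its target, while the libraries were made from whole tissue. RNA-seq of polyadenylated RNA and Ribo-seq, a readout of the stretches of mRNA that ribosomes protect, gave 2 libraries each per genotype, 8 in all. The labels do not say that replicates are different animals, so that a p-value here covers no more than how far these libraries lie apart, which could be technical.

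Hemoglobin is a tetramer of alpha and beta chains, each holding a heme. In adult mice the alpha chains come from the neighbouring genes Hba-a1 and Hba-a2, and the beta chains in the haplotype of C57BL/6 come from Hbb-bs and Hbb-bt. Alas2 encodes the erythroid form of 5-aminolevulinate synthase, the first enzyme of heme synthesis, and its translation is held back in red cell precursors when iron is low. Mature mammalian red cells have no nucleus, and reticulocytes, the young red cells in blood, still carry globin mRNA and ribosomes.

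The promoter sequences are shown because they tell how alike the members of each globin pair are at their starts. They come from RefSeq (GRCm38.p6), 5′ to 3′ on the strand of the gene, and all 5 genes matched. The windows lie at chr11:32283632-32283661 (plus strand) for Hba-a1, chr11:32296449-32296478 (plus strand) for Hba-a2, chr7:103827941-103827970 (minus strand) for Hbb-bs, chr7:103813935-103813964 (minus strand) for Hbb-bt and chrX:150547319-150547348 (plus strand) for Alas2. Capitals mark the letters ATATAA in the globin windows and TTATCT, the reverse complement of AGATAA, in the Alas2 window.
Hba-a1: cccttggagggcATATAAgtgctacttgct
Hba-a2: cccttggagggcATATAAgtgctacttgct
Hbb-bs: ccagggcagagcATATAAggtgaggtagga
Hbb-bt: ccagcattgggtATATAAagctgagcaggg
Alas2: ctactttgctttTTATCTttagcagaggcc

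The Hba-a1 and Hba-a2 windows read the same. Over the full promoter window, from 250 bases before to 50 after the start of the gene, they shared an unbroken run of 297 of 300 bases. Those of Hbb-bs and Hbb-bt were identical at 216 of 294 aligned bases (73.5%), with a longest shared run of 14. The letters ATATAA, which resemble the box that places RNA polymerase in many core promoters, began at -28, -31, -30 and -29 from the annotated start in Hba-a1, Hba-a2, Hbb-bs and Hbb-bt, and was not in the Alas2 window. Read on both strands, 9.82% of 32851 promoters of the same length held ATATAA, and 11.2% held AGATAA, which overlaps GATAAG, another form of the GATA motif (7.44%). In the full windows AGATAA was also in Hbb-bs, at -210. GATAAG began at -182, -185, -209 and -204 in Hba-a1, Hba-a2, Hbb-bs and Hbb-bt, and was not in Alas2. Motif matches are descriptions of these letters. How reads that match both copies were counted is unknown. The split between Hba-a1 and Hba-a2, and that between Hbb-bs and Hbb-bt, is thus uncertain. The effect of this counting on the level of each pair, in either assay, was not tested. The promoter windows do not tell how alike the coding sequences of a pair are.

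The libraries held 7364523 to 11862838 reads assigned to genes by Ribo-seq, 12211351 and 16429015 by RNA-seq of Y1cKO, and 3958284 and 4963613 by RNA-seq of Y1CTL. Ythdf1 itself had 12.7 and 15.7 RPKM (reads scaled to gene length and library depth) in Y1cKO, against 17.3 and 16.0 RPKM in Y1CTL, by Ribo-seq, and 7.17 and 7.98 RPKM in Y1cKO, against 8.01 and 11.5 RPKM in Y1CTL, by RNA-seq. Its difference did not pass the test (limma adjusted p = 1 by Ribo-seq and 0.587 by RNA-seq), and the values cover the gene and not the deleted exon alone. Some markers of other cells set single libraries apart. The summed RPKM of 13 skeletal muscle markers was 279 in Y1cKO RNA-seq replicate 1 and 0.495 to 2.70 in the other RNA-seq libraries. The summed RPKM of 14 lymphocyte markers was 288 in Y1CTL RNA-seq replicate 2 and 2.85 to 4.23 in the other RNA-seq libraries, but 914 to 1190 in all 4 Ribo-seq libraries. The summed RPKM of 10 beige adipocyte markers, led by Ucp1, was 438 in Y1cKO RNA-seq replicate 1 and 1460 in replicate 2, against 1560 and 2900 in Y1CTL. By Ribo-seq the beige sum was 9970 and 7860 in Y1cKO, against 10500 and 4100 in Y1CTL. It was thus lowest in Y1CTL replicate 2, the replicate number with the highest beige sum by RNA-seq. The RNA-seq sums stand beside every RNA-seq result below, since the same libraries gave the highest and the lowest RNA-seq values of the globins. The Ribo-seq sums likewise stand beside every Ribo-seq result, and the part of tissue content in the globin values was not tested.

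Globin reads were detected in every library and were a small share of it. By Ribo-seq they made up 0.0117% and 0.0198% of reads in Y1cKO, against 0.0316% and 0.0166% in Y1CTL. By RNA-seq they made up 0.0562% and 0.0368% of reads in Y1cKO, against 0.0386% and 0.0171% in Y1CTL. The 95% Wilson intervals were narrow, for example 0.0110% to 0.0124% for the lowest Ribo-seq share, and cover counting error only. In neither assay did the shares of the genotypes separate. Fewer red cells and less globin mRNA per cell cannot be told apart in such whole-tissue libraries.

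The Ribo-seq and RNA-seq libraries held the globins in opposite proportions. By Ribo-seq the alpha genes led, with Hba-a1 at 154 and 280 RPKM in Y1cKO, against 444 and 228 RPKM in Y1CTL. Hba-a2 had 87.4 and 142 RPKM in Y1cKO, against 236 and 121 RPKM in Y1CTL. The beta gene Hbb-bs had 23.6 and 34.4 RPKM in Y1cKO, against 46.1 and 34.2 RPKM in Y1CTL. All 3 genes had their highest Ribo-seq value in Y1CTL replicate 1 and their lowest in Y1cKO replicate 1, with the other pair of libraries between them, so that the genotypes overlapped. Hbb-bt, the other beta gene, had 7.39 and 6.78 RPKM in Y1cKO, against 13.9 and 4.93 RPKM in Y1CTL, from only 16 to 73 reads a library. Alas2 had 9.31 and 14.8 RPKM in Y1cKO, against 25.0 and 13.7 RPKM in Y1CTL, in the same order of libraries as the alpha genes.

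By RNA-seq Hbb-bs led by far, with 595 and 410 RPKM in Y1cKO, against 497 and 210 RPKM in Y1CTL. It ranked 48 and 65 among the genes of the Y1cKO libraries, and 51 and 167 among those of the Y1CTL libraries. Hbb-bt had 67.7 and 42.0 RPKM in Y1cKO, against 39.9 and 17.2 RPKM in Y1CTL. For Hbb-bs the genotypes overlapped, while for Hbb-bt both Y1cKO libraries lay above both Y1CTL libraries, by a narrow margin between Y1cKO replicate 2 and Y1CTL replicate 1. Hba-a1 had 112 and 70.5 RPKM in Y1cKO, against 45.9 and 21.0 RPKM in Y1CTL. Hba-a2 had 113 and 56.5 RPKM in Y1cKO, against 24.6 and 22.2 RPKM in Y1CTL, the last pair from only 54 and 61 reads. Both alpha genes were thus higher in each Y1cKO library than in each Y1CTL library. Such a separation by RNA-seq, which Hbb-bt also had, held for 36.9% of 12435 genes. Alas2 had 10.2 and 5.80 RPKM in Y1cKO, against 7.81 and 5.14 RPKM in Y1CTL, and its genotypes overlapped.

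**Figure D1:**
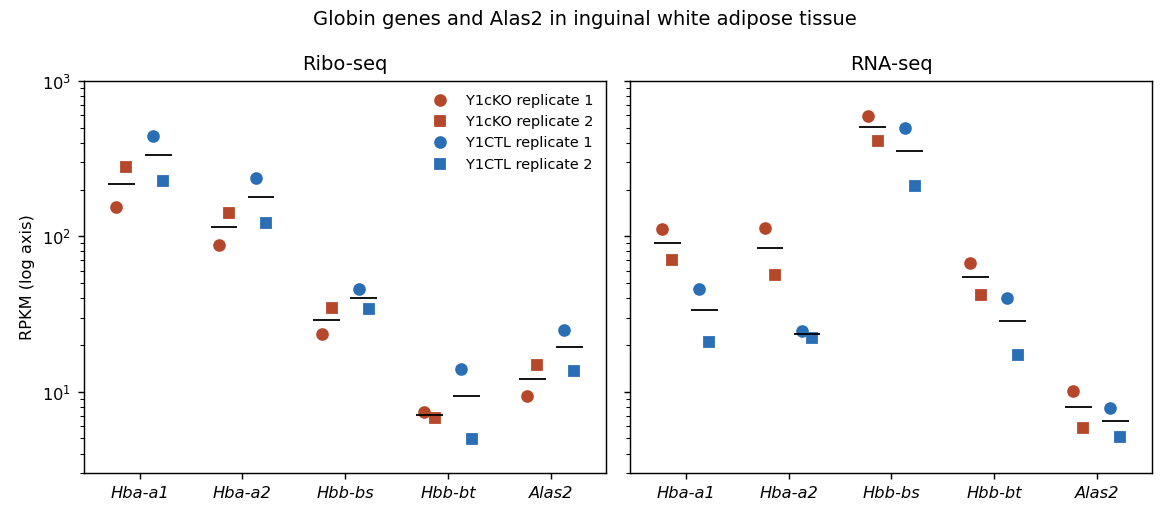
RPKM (log axis) of the globin genes and Alas2 by Ribo-seq (left) and RNA-seq (right) in each Y1cKO and Y1CTL library (points), with the mean of each pair of libraries (lines). Hba-a1 was the highest of the 5 by Ribo-seq, and Hbb-bs by RNA-seq, in every library.

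In the order of mean levels by Ribo-seq, Hba-a1 came before Hba-a2, Hbb-bs, Alas2 and Hbb-bt, and each library kept this order. By RNA-seq Hbb-bs came first and Alas2 last in each library. Between them Hba-a1 was above Hbb-bt in each library, while Hba-a2 was above Hba-a1 in 2 of 4 and above Hbb-bt in 3 of 4. The replicate ranges of these genes overlapped in Y1CTL, and in Y1cKO only those of Hba-a1 and Hbb-bt did not. Hba-a1, Hba-a2 and Hbb-bt had means of 91.3 ± 29.5, 84.7 ± 39.9 and 54.8 ± 18.2 RPKM in Y1cKO (SD, n = 2), against 33.5 ± 17.6, 23.4 ± 1.73 and 28.5 ± 16.1 RPKM in Y1CTL (SD, n = 2). RNA-seq RPKM is per length of the transcript and Ribo-seq RPKM per length of the coding sequence.

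The ratio of alpha to beta globin RPKM showed the contrast of the assays in each library. By Ribo-seq it was 7.80 and 10.2 in Y1cKO, against 11.3 and 8.93 in Y1CTL, with overlap between the genotypes. By RNA-seq it was 0.340 and 0.281 in Y1cKO, against 0.131 and 0.191 in Y1CTL, with both Y1cKO libraries above both Y1CTL libraries. Ratios of reads instead of RPKM were alike, at 7.53 to 10.9 by Ribo-seq and 0.134 to 0.335 by RNA-seq. How far the counting of reads that match both copies of a pair shaped these ratios was not tested. With 2 libraries against 2, an exact permutation test cannot give a two-sided p below 0.333, so that no ratio was tested.

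Within the alpha pair, Hba-a1 took a nearly fixed share of the Ribo-seq reads, 63.8% and 66.4% in Y1cKO, against 65.3% and 65.3% in Y1CTL. Its share of the RNA-seq reads varied more, at 55.6% and 61.2% in Y1cKO, against 70.2% and 54.5% in Y1CTL. The Wilson intervals of the Y1CTL RNA-seq shares were wide, at 63.1% to 76.4% and 46.0% to 62.7%. Within the beta pair, Hbb-bs took 76.2% and 83.5% of the Ribo-seq reads in Y1cKO, against 76.8% and 87.4% in Y1CTL. It took 88.7% and 89.7% of the RNA-seq reads in Y1cKO, against 91.8% and 91.6% in Y1CTL, so that Hbb-bs was the main beta gene in both assays.

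Alas2 followed the alpha globins closely by Ribo-seq. Its RPKM was 0.0386 and 0.0350 of the summed alpha RPKM in Y1cKO, against 0.0368 and 0.0391 in Y1CTL, while Alas2 itself spanned 9.31 to 25.0 RPKM. By RNA-seq this ratio was 0.0452 and 0.0457 in Y1cKO, against 0.111 and 0.119 in Y1CTL, with no overlap, and was not tested. The Y1CTL values came from only 181 and 134 alpha reads and 63 and 52 Alas2 reads. Set against all 4 globins, Alas2 by RNA-seq was 1.15% and 1.00% in Y1cKO, against 1.29% and 1.91% in Y1CTL, a closer range, over a sum made up mostly of Hbb-bs.

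**Figure D2:**
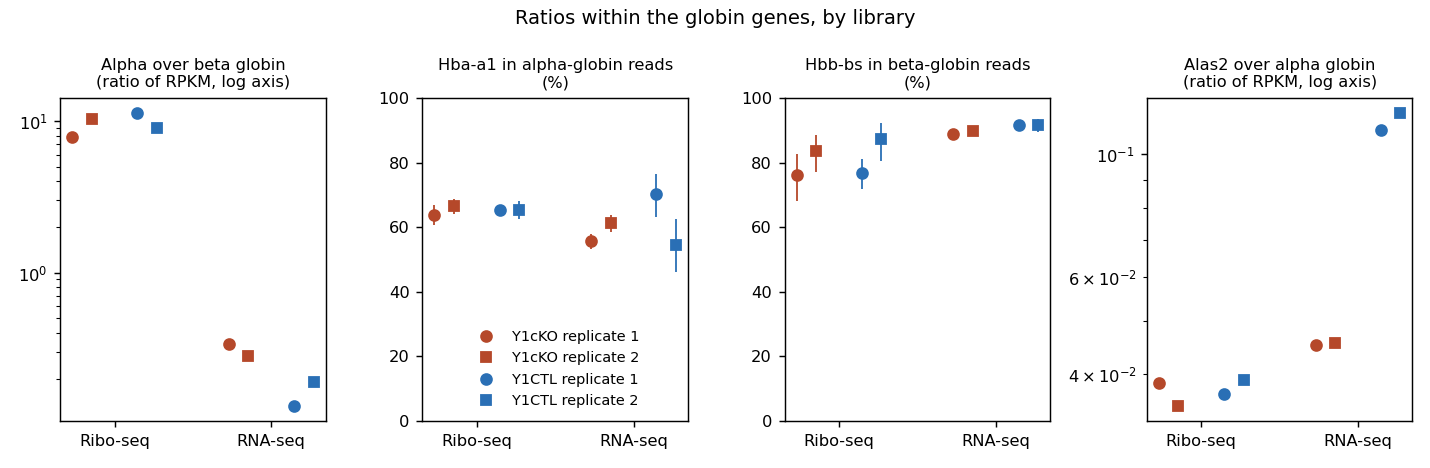
Ratios in each Y1cKO and Y1CTL library (points): alpha over beta globin RPKM, the share of Hba-a1 in alpha reads, the share of Hbb-bs in beta reads, and Alas2 over alpha RPKM, with 95% Wilson intervals on the shares. Alpha over beta was 7.80 to 11.3 by Ribo-seq and 0.131 to 0.340 by RNA-seq. Alas2 over alpha did not overlap between the genotypes by RNA-seq, from few reads in Y1CTL, and no ratio was tested.

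The level by Ribo-seq over that by RNA-seq placed the beta genes at the low end of all genes. For Hbb-bs the ratio of mean RPKM was 0.0577 in Y1cKO, where only 3 of 11792 genes were lower, against 0.114 in Y1CTL, where 21 were lower. For Hbb-bt it was 0.129 in Y1cKO, against 0.331 in Y1CTL. The median gene had a ratio of 1.80 in Y1cKO, against 1.98 in Y1CTL. For both beta genes all 4 Ribo-seq values lay below all 4 RNA-seq values, as they did for 12.7% of genes. Hba-a1 had a log2 ratio of 1.25 in Y1cKO (percentile 61.3), against 3.31 in Y1CTL (percentile 95.7), and its Ribo-seq values all lay above its RNA-seq values, as for 58.7% of genes. Hba-a2 had a ratio of 1.35 in Y1cKO, against 7.64 in Y1CTL, and Alas2 of 1.51 in Y1cKO, against 2.99 in Y1CTL. For the globins, the effect of reads that match both copies of a pair on these ratios was not tested. By the labels each assay took its share of one tissue lysate. The lymphocyte sum by Ribo-seq was 260 and 310 times that by RNA-seq of the same number in Y1cKO, against 369 and 3.18 times in Y1CTL, and its part in the ratios of the globins was not tested.

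**Figure D3:**
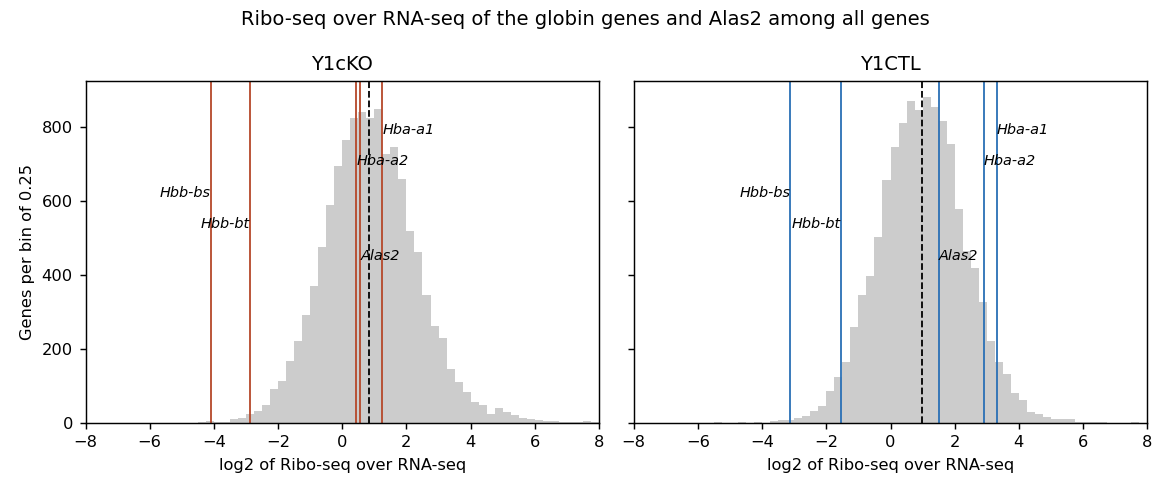
Histogram of log2 of Ribo-seq over RNA-seq (difference of log2 of mean RPKM + 0.5) of 11792 genes (axis cut at -8 and 8) in Y1cKO (left) and Y1CTL (right), with the 5 genes (coloured lines) and the median gene (dashed). Hbb-bs and Hbb-bt lay in the lower tail in both genotypes, and Hba-a1 and Hba-a2 in the upper part in Y1CTL.

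The genotypes were compared by limma on log2(RPKM + 0.5) over all genes that averaged 0.5 RPKM or more, a filter that all 5 genes passed, with p-values adjusted by Benjamini-Hochberg. By Ribo-seq all 5 had a lower mean log2 level in Y1cKO, as did 48.5% of 12602 genes, and none passed the adjusted threshold of 0.05. The log2 fold change (Y1cKO over Y1CTL) was -0.61 for Hba-a1 (standard error 0.39), -0.60 for Hba-a2, -0.47 for Hbb-bs, -0.23 for Hbb-bt and -0.64 for Alas2, each with a limma adjusted p of 1. For 0 of the 5 genes did both Y1cKO libraries lie below both Y1CTL libraries, which held for 14.1% of genes. Of all genes, limma put 0% past the adjusted threshold and 2.75% under an unadjusted p of 0.05, and limma-voom on the recovered reads also called 0 genes.

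By RNA-seq all 5 had a higher mean log2 level in Y1cKO, as did 67.2% of 12435 genes, with a median log2 fold change of 0.17 over all genes. It was 1.50 for Hba-a1 (standard error 0.42, limma adjusted p = 0.402) and 1.75 for Hba-a2 (standard error 0.34, limma adjusted p = 0.401). Both had an unadjusted p under 0.05, as did 11.8% of genes, while 0% passed the adjusted p and limma-voom called 0. It was 0.61 for Hbb-bs (adjusted p = 0.594), 1.01 for Hbb-bt (adjusted p = 0.446) and 0.26 for Alas2 (adjusted p = 0.752), by limma. With the libraries scaled to the same median, these values were 1.34 for Hba-a1, 1.59 for Hba-a2, 0.45 for Hbb-bs, 0.85 for Hbb-bt and 0.10 for Alas2. Both Y1cKO libraries lay above both Y1CTL libraries for 3 of the 5 genes, against 36.9% of all genes. Without Y1CTL replicate 1, Hba-a1 (log2 fold change 2.05, adjusted p = 0.0278) and Hbb-bt (1.60, adjusted p = 0.0482) passed the limma test, which then called 665 genes. Without Y1CTL replicate 2 they did not, at 0.95 for Hba-a1 (adjusted p = 0.155) and 0.41 for Hbb-bt (adjusted p = 0.472), and without either Y1cKO replicate their limma adjusted p was 0.927 or 0.997. The muscle and lymphocyte markers did not set apart Y1cKO replicate 2 and Y1CTL replicate 1. Between these 2 libraries, Y1cKO first, Hba-a1 had 70.5 against 45.9 RPKM, and Hba-a2 had 56.5 against 24.6 RPKM. Hbb-bt had 42.0 against 39.9 RPKM, but Hbb-bs had 410 against 497 RPKM, and Alas2 had 5.80 against 7.81 RPKM.

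The difference of these differences is the change in translational efficiency (TE), the interaction of assay and genotype over the 8 libraries. It was negative for all 5 genes, as for 65.3% of 11792 genes, whose median was -0.17. It was -2.11 for Hba-a1 (standard error 0.69, limma adjusted p = 0.563), -2.35 for Hba-a2 (standard error 0.60, adjusted p = 0.563), -1.08 for Hbb-bs (adjusted p = 0.583), -1.24 for Hbb-bt (adjusted p = 0.606) and -0.89 for Alas2 (adjusted p = 0.614). The alpha genes had an unadjusted p under 0.05, as did 8.66% of genes, and 0% of genes passed the adjusted p in limma or in limma-voom. Per pair of libraries, in any combination of replicates, Hba-a1 by Ribo-seq over RNA-seq ranged over 1.38 to 3.98 in Y1cKO, against 4.97 to 21.1 in Y1CTL, and Hba-a2 over 0.774 to 2.51 in Y1cKO, against 4.92 to 10.7 in Y1CTL. For Hbb-bs (0.0397 to 0.0838 in Y1cKO, against 0.0687 to 0.220 in Y1CTL), Hbb-bt (0.10 to 0.176, against 0.124 to 0.812) and Alas2 (0.916 to 2.55, against 1.75 to 4.87) the genotypes overlapped. All Y1cKO ratios thus lay below all Y1CTL ratios for 2 of the 5 genes, and for 21.0% of all genes. With 1 replicate number left out, the TE change was -1.59 to -0.20 for Alas2 and -1.62 to -0.55 for Hbb-bs.

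**Figure D4:**
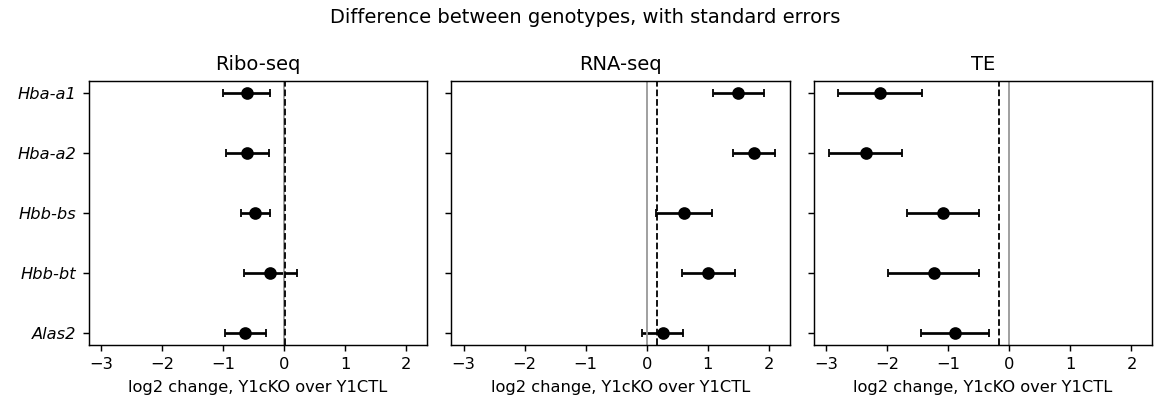
Log2 change of Y1cKO over Y1CTL on the log2(RPKM + 0.5) scale, with standard errors (bars), by Ribo-seq, RNA-seq and for TE, beside 0 (grey line) and the median of all genes tested (dashed). The 5 genes lay below 0 by Ribo-seq (-0.64 to -0.23), above 0 by RNA-seq (0.26 to 1.75) and below 0 for TE (-2.35 to -0.89), and none passed the adjusted test.

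Other red cell genes were at or near 0. Of 16 genes found for the red cell membrane and its skeleton, 11 by Ribo-seq and 10 by RNA-seq did not reach the filter, and the others gave 3 higher and 2 lower in Y1cKO by Ribo-seq, and 3 higher and 3 lower by RNA-seq, with 0 past the adjusted p by limma. Slc4a1, the anion exchanger band 3, had 0 to 0.363 RPKM by Ribo-seq and 0.295 to 0.834 RPKM by RNA-seq. This gene, and Gata1 and Klf1 below, were named after their values were seen. Those of the list that were expressed, led by Gypc (27.6 to 43.4 RPKM), Epb41 and Dmtn, are also made by other cells. Gata1 and Klf1, the main transcription factors of red cell precursors, had at most 0.339 and 0.448 RPKM, and 0 reads in 4 and 3 of the RNA-seq libraries, where 0 reads allow up to 3. The embryonic and minor globin chains found (Hbb-y, Hbb-bh1, Hbq1a, Hbq1b) summed to at most 0.756 RPKM in a library.

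Of the cytosolic proteins of red cells, Bpgm, which makes the 2,3-bisphosphoglycerate that lowers the oxygen affinity of hemoglobin, had 14.2 and 14.4 RPKM in Y1cKO, against 26.3 and 16.6 RPKM in Y1CTL, by Ribo-seq. Its RNA-seq values were 6.90 and 6.69 RPKM in Y1cKO, against 4.55 and 3.09 RPKM in Y1CTL, so that the genotypes lay the other way round in this assay, without passing the test in either (log2 fold changes -0.53 and 0.78, limma adjusted p = 1 and 0.402). Eif2ak1, the heme-regulated kinase that slows globin translation when heme is short, had 22.0 and 22.8 RPKM in Y1cKO, against 19.8 and 17.0 RPKM in Y1CTL, by Ribo-seq (limma adjusted p = 1). By RNA-seq Eif2ak1 had 11.9 and 11.5 RPKM in Y1cKO, against 13.1 and 11.2 RPKM in Y1CTL (limma adjusted p = 0.920). Of the list of erythroid regulators and cytosolic proteins, 9 of 15 were tested by Ribo-seq (4 higher and 5 lower in Y1cKO) and 6 by RNA-seq (5 higher and 1 lower), and 0 passed the adjusted p by limma.

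Alas1, the form of the enzyme in all cells, was far above Alas2, with 251 and 245 RPKM in Y1cKO, against 287 and 300 RPKM in Y1CTL, by Ribo-seq. By RNA-seq Alas1 had 80.0 and 78.7 RPKM in Y1cKO, against 99.4 and 87.7 RPKM in Y1CTL, and did not pass the limma test in either assay (adjusted p = 1 and 0.606). The 12 genes of heme synthesis other than Alas2, Alas1 among them, gave 4 higher and 8 lower by Ribo-seq (median log2 fold change -0.04) and 7 higher and 5 lower by RNA-seq (median 0.04). Of the genes that clear hemoglobin and heme, Hp, haptoglobin, which adipocytes also make, had 485 and 397 RPKM in Y1cKO, against 218 and 217 RPKM in Y1CTL, by RNA-seq (log2 fold change 1.01, limma adjusted p = 0.401). By Ribo-seq Hp had 1751 and 1521 RPKM in Y1cKO, against 1084 and 1943 RPKM in Y1CTL, with overlap. Hmox1, heme oxygenase 1, named after its values were seen, had 46.7 and 53.9 RPKM in Y1cKO, against 72.6 and 73.5 RPKM in Y1CTL, by Ribo-seq (log2 fold change -0.54, limma adjusted p = 1). By RNA-seq Hmox1 had 12.9 and 8.77 RPKM in Y1cKO, against 11.6 and 7.83 RPKM in Y1CTL, with overlap (log2 fold change 0.15, limma adjusted p = 0.835). The clearance list gave 4 higher and 6 lower of 10 by Ribo-seq and 9 higher and 1 lower of 10 by RNA-seq.

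Of the globins of other cells, Cygb, cytoglobin, had 45.6 and 48.7 RPKM in Y1cKO, against 36.8 and 49.8 RPKM in Y1CTL, by Ribo-seq. By RNA-seq Cygb had 20.7 and 18.6 RPKM in Y1cKO, against 10.4 and 9.51 RPKM in Y1CTL (log2 fold change 0.94, limma adjusted p = 0.401). Mb, myoglobin, had 4.55 and 1.68 RPKM in Y1cKO, against 26.5 and 2.94 RPKM in Y1CTL, by Ribo-seq, a spread set by 1 library.

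As a sum, markers of blood vessels followed the libraries much as the globins did. The summed RPKM of 11 endothelial markers was 393 and 490 in Y1cKO, against 600 and 394 in Y1CTL, by Ribo-seq. Its highest value was in the same library as those of the alpha globins, while the lowest values, 393 and 394, were nearly tied. By RNA-seq it was 474 and 396 in Y1cKO, against 413 and 320 in Y1CTL, in the order of Hbb-bs and Alas2. Of the 11 markers 9 were lower in Y1cKO by Ribo-seq and 11 higher by RNA-seq, and 0 passed the adjusted p by limma. Cldn5, higher in Y1cKO by Ribo-seq, had 83.6 and 70.7 RPKM in Y1cKO, against 75.8 and 65.4 RPKM in Y1CTL. Its highest value was in Y1cKO replicate 1, where the alpha globins were lowest. The globins spanned a wider range, 2.71-fold by Ribo-seq and 3.29-fold by RNA-seq, against 1.53-fold and 1.48-fold for the endothelial sum. Globin over endothelial RPKM was 0.693 and 0.945 in Y1cKO, against 1.23 and 0.985 in Y1CTL, by Ribo-seq, and 1.87 and 1.46 in Y1cKO, against 1.47 and 0.844 in Y1CTL, by RNA-seq. The part of vessel content in the globin values was not tested.

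**Figure D5:**
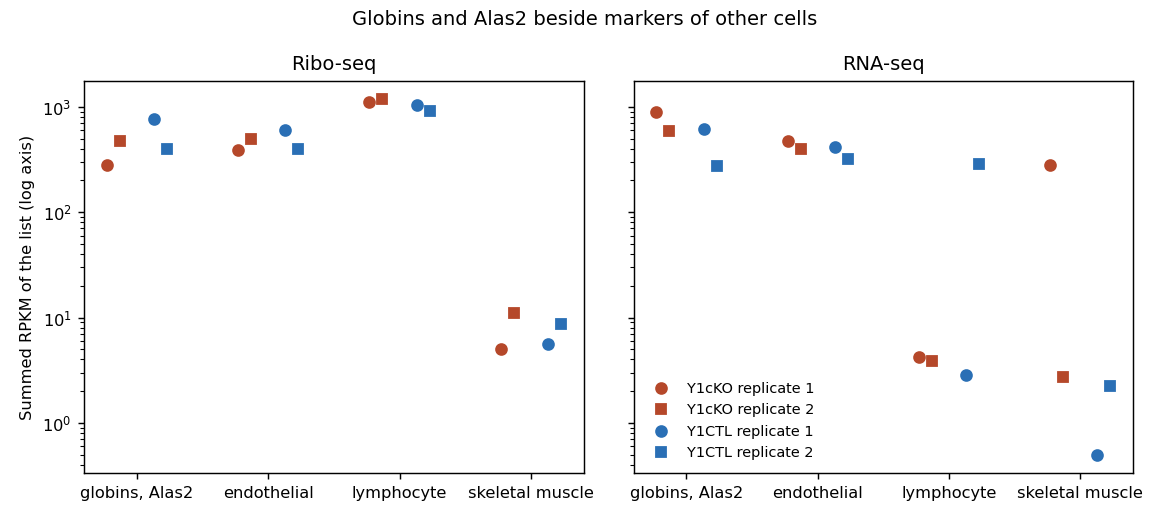
Summed RPKM (log axis) of the globins with Alas2 and of endothelial, lymphocyte and skeletal muscle markers in each Y1cKO and Y1CTL library, by Ribo-seq (left) and RNA-seq (right). The lymphocyte sum was 288 in Y1CTL RNA-seq replicate 2 and the muscle sum 279 in Y1cKO RNA-seq replicate 1, while the endothelial sum stayed within 320 to 600.

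The genes most like the mean profile of the 5 genes were sought among 11792 genes by Pearson's r over the 8 libraries, centred within assay, as a description. The 5 genes themselves had r of 0.86 to 0.99, values raised in advance because each gene is part of that mean. The 10 closest others were Tie1 (r = 0.989), Faap100, Tpm1, Adcy4, Ppfibp2, Snrk, Agrn, Esam, Ccdc85a and Tagln (r = 0.971). Tie1 is a receptor and Esam an adhesion molecule of endothelial cells, and Tagln is a marker of smooth muscle. Tie1 had 6.89 and 8.59 RPKM in Y1cKO, against 11.1 and 7.26 RPKM in Y1CTL, by Ribo-seq, and 20.9 and 16.6 RPKM in Y1cKO, against 13.7 and 10.3 RPKM in Y1CTL, by RNA-seq. The 8 points are 4 libraries of each assay, which differ in depth and may differ in tissue content. The median r of the 11 endothelial markers was 0.77, with a range of 0.55 to 0.99. The median r was 0.55 for the 3 skeletal muscle markers compared, -0.67 for the lymphocyte, 0.50 for the adipocyte and -0.43 for the beige adipocyte markers. Other red cell genes were less like the 5. The median r was 0.16 for the red cell membrane list (-0.44 to 0.50) and 0.35 for the erythroid regulators (-0.30 to 0.91). It was 0.28 for heme synthesis, 0.41 for clearance, 0.46 for platelet and 0.08 for neutrophil genes.

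Of other blood cells, neutrophil markers gave 5 higher and 7 lower of 12 by Ribo-seq, with sums of 284 and 404 RPKM in Y1cKO, against 447 and 263 RPKM in Y1CTL. By RNA-seq the neutrophil sums were 7.11 to 13.9 RPKM, too low to set beside the globins. Platelet markers, led by Pf4, summed to 202 and 181 RPKM in Y1cKO, against 155 and 251 RPKM in Y1CTL, by Ribo-seq, a sum made up almost wholly of Pf4. Of the 10 platelet markers found, 6 by Ribo-seq and 7 by RNA-seq did not reach the filter. By Ribo-seq Itga2b, the integrin chain of platelets, had 5.94 and 8.71 RPKM in Y1cKO, against 13.2 and 8.72 RPKM in Y1CTL (limma adjusted p = 1). Its highest and lowest Ribo-seq values were in the same libraries as those of the alpha globins. By RNA-seq Itga2b had 0.786 and 0.372 RPKM in Y1cKO, against 0.221 and 0.703 RPKM in Y1CTL, in another order than the alpha globins. The adipocyte and beige adipocyte lists had 0 genes past the adjusted p by limma in either assay, with median log2 fold changes of -0.04 and 0.34 by Ribo-seq and 0.55 and -1.07 by RNA-seq.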

How the data were processed

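The authors trimmed and mapped reads with HISAT2 2.2.1 to mm8, per the labels, and deposited the RPKM values of each library as 1 table. The counter, the annotation, the strandedness and the treatment of reads with several matches are not named by the labels or the study's methods, that is, not given in the sources used here. DESeq2 is named in the submitters' processing notes with no role. All deposited RPKM values (100%) came out as whole numbers of reads (tolerance 0.01 read), from which reads and depth were recovered. Genes absent from a Ribo-seq table were taken as 0, and 17255 of 17264 gene identifiers matched a table of names.

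The test was limma 3.58.1 in R 4.3.3, with a trend of the variance on the level, on log2(RPKM + 0.5) of the genes that averaged 0.5 RPKM or more, without a replicate block. A fold change on this scale understates the change of low genes. The tests within RNA-seq and within Ribo-seq were checked on simulated data. Replicates differed by more than sampling noise (chi-square 12.3 to 36.2 per degree of freedom). Counting intervals are exact Poisson or Wilson intervals and cover counting error only. Python 3.11.15, pandas 2.3.3 and scipy 1.17.1 were used for ratios and likeness.

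The 14 gene lists, that of the 5 genes among them, were chosen with earlier results of these data known. The text names all 5 genes, up to 4 members of a list with the highest mean RPKM, and the 10 genes most alike, and says where a gene was named after its values were seen. As alternatives, other pseudocounts, no filter, median scaling, limma-voom with trimmed-mean scaling on recovered reads, summed copies, a replicate block and the omission of each replicate were run. In the Y1cKO RNA-seq tables the replicate number of the heading differs from that of the label, and the label was followed. Listed genes that were not found by symbol, such as Hba-x and Ahsp, are not analysed here, and some listed genes are not reported here by name.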

Additional observations from a re-analysis of the deposited data

How the results depend on the processing

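The counts of genes past the adjusted p were 0 in all 3 comparisons under every setting that kept all libraries, limma-voom and the replicate block included. With 1 replicate left out they were 0 to 51 by Ribo-seq, 0 to 665 by RNA-seq and 0 to 963 for TE. These calls came without Y1CTL replicate 1 (51, 665 and 963 genes) or without Y1CTL replicate 2 (19 by Ribo-seq and 52 by RNA-seq), where 1 Y1CTL library is assumed to vary like the other group, and the cause was not tested. The direction reversed for Hbb-bt by Ribo-seq without Y1CTL replicate 1 (log2 fold change 0.48), for Hbb-bs (-0.0096) and Alas2 (-0.02) by RNA-seq without Y1CTL replicate 2, and for Alas2 by RNA-seq without Y1cKO replicate 1 (-0.12). The other values of the 5 genes kept their direction under all alternatives run. With 1 replicate left out Hba-a1 was -1.09 to -0.13 by Ribo-seq, 0.95 to 2.05 by RNA-seq and -2.88 to -1.35 for TE, and Hba-a2 was -1.08 to -0.12, 1.25 to 2.25 and -3.20 to -1.51. By Ribo-seq Hbb-bs was -0.74 to -0.20, Hbb-bt -0.93 to 0.48 and Alas2 -1.06 to -0.21. By RNA-seq Hbb-bs was -0.0096 to 1.24, Hbb-bt 0.41 to 1.60 and Alas2 -0.12 to 0.64. For TE Hbb-bs was -1.62 to -0.55, Hbb-bt -1.52 to -0.95 and Alas2 -1.59 to -0.20. With libraries scaled to the same median, the TE change was -1.96 for Hba-a1 and -2.20 for Hba-a2. Summed copies gave log2 fold changes by RNA-seq of 1.61 for alpha and 0.65 for beta globin.

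RNA-seq and Ribo-seq libraries of the same number deviated apart across genes (r = -0.24 in Y1cKO and -0.14 in Y1CTL), and same-numbered Y1cKO and Y1CTL libraries were unrelated (r = -0.02 by RNA-seq and 0.05 by Ribo-seq), so that the numbers were not taken to pair the libraries. These r follow the numbers of the labels. With the column headings of the Y1cKO RNA-seq tables, each r that uses those libraries would change sign. The replicate block called 0 genes in each comparison. Blocks with crossed RNA-seq numbers, or with the numbers of the column headings, were added after the data were seen and called 0 genes for TE. Depth limits Hbb-bt by Ribo-seq (16 to 73 reads) and the alpha genes in Y1CTL by RNA-seq (54 to 127 reads).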
